A study of Mus musculus with 2 samples.

Results

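The caveola coat was followed through the differentiation of brown preadipocytes by 8 genes, picked by symbol from the 23361 genes with values in the table. They were the caveolins Cav1, Cav2 and Cav3, the cavins Ptrf (cavin 1), Sdpr (cavin 2) and Prkcdbp (cavin 3) under their older symbols, and the caveola-associated genes Ehd2 and Pacsin2. RNA-Seq had been performed on 1 library of preadipocytes at day 0 (D0) and 1 library of adipocytes at day 7 (D7). Both came from interscapular brown fat of newborn C57BL/6 mice, and the cells had been grown with 20% serum. From 4 days before induction, both stages had been kept in medium with T3 (1 nM), insulin (0.1 μM) and 10% serum. At induction, the cells that gave the D7 library also received dexamethasone (2 μg/ml), indomethacin (0.125 mM) and IBMX (0.5 mM) for 2 days. The methods of the study give other insulin and dexamethasone concentrations, and 10% serum for the culture of preadipocytes. They describe immortalization with large T, where the labels name primary cultures, and they do not say whether cells of several animals were pooled. With no replicates, the spread between cultures of 1 stage is unknown and no p-value was computed.

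Caveolae are small flask-shaped pits of the plasma membrane, and adipocytes are among the cells richest in them. Caveolins insert into the inner face of the membrane as oligomers, and cavins assemble around them as an outer coat. EHD2 is an ATPase that sits at the neck of the pit and holds it at the surface, and PACSIN2 is a curved F-BAR protein that shapes the neck. In fat cells, caveolae hold the insulin receptor and take part in fatty acid uptake, and they flatten to buffer the membrane when the cell swells with lipid.

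Cav1 and Cav2 are neighbours on chromosome 6, and they were the members that rose past 2-fold, so the sequence before their start sites is shown together with that of the cavin Ptrf, which did not. Each window holds the 250 bases before a RefSeq start site of GRCm38.p6, read 5′ to 3′ on the strand of the gene. Capitals mark a GC box, GGGCGG on either strand. The windows are chr6:17306085-17306334 (plus strand) for Cav1, chr6:17280935-17281184 (plus strand) for Cav2 and chr11:100970618-100970867 (minus strand) for Ptrf.
Cav1: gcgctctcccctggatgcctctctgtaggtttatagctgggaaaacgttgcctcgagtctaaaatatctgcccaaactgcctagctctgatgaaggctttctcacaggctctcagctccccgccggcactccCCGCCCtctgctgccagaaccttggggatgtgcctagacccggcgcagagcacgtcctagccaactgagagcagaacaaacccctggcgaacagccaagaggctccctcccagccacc
Cav2: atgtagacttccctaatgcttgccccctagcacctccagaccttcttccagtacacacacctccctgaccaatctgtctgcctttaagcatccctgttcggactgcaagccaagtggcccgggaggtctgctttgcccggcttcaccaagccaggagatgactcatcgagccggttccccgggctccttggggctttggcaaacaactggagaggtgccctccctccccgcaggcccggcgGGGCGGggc
Ptrf: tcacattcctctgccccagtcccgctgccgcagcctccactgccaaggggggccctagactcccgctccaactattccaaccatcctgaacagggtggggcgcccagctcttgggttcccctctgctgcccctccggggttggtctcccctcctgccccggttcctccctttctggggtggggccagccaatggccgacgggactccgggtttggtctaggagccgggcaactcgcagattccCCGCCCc

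Windows were found for 7 of the 8 members, with none for Prkcdbp. The 7 genes had 11 windows, since some have several start sites. A GC box was present in 6 of these 11 windows, which belong to Cav1, Cav2, Ptrf, Ehd2 and Pacsin2, beside 32.7% of all 32851 windows. The windows of Ptrf, chr11:100970618-100970867 and chr11:100970616-100970865, overlap almost wholly and hold the same GC box, which is therefore counted in both. TTGCNNAA, the core that C/EBP factors bind, was found on the minus strand in the Cav2 window alone, beside 9.56% of all windows. TATAAA was found on the minus strand in the Cav1 window alone, beside 12.4%. The CArG box of SRF (1.47% of all windows) and AGGTCA repeated after a gap of 1 base, as PPAR binds it (0.0335%), were in no member's window. No match overlapped another in the Cav1 and Cav2 windows. The window before the second start site of Cav1, chr6:17307390-17307639, held none of these motifs. The windows of Cav1 and Cav2 were alike in GC content, with 59.6% and 62.0%, and Ptrf had 67.6%, while Sdpr had 40.4% and all windows had a median of 52.4%.

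The deposited values are FPKM, numbers of fragments corrected for transcript length and for sequencing depth, and were used without rescaling. Numbers of fragments were recovered from 602 genes with 1 exon, in which all 79 low values at D0 and all 90 at D7 were whole numbers within 0.1. The implied depth was 21471371 fragments at D0, compared with 18265534 at D7, so the FPKM of 1 fragment was 1.18 times higher at D7. The numbers of mapped reads that the study reports are closer to equal between D0 and D7, and the reason for this difference was not tested. Each interval below is the exact 95% interval of such fragment numbers. It holds counting error alone, sets 1 library against 1 library rather than stage against stage, and is approximate for genes with several exons.

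Cav1 and Cav2 had the largest ratios of the members. Cav1, the structural caveolin of adipocytes, stood at 83.1 FPKM before differentiation (about 4183 fragments) and at 585 FPKM after it (about 24997 fragments). Its D7/D0 ratio was 7.03 (95% interval 6.81 to 7.27). Cav2, which forms mixed oligomers with caveolin 1 and depends on it to reach the plasma membrane, stood at 8.65 FPKM before (about 474 fragments) and at 99.1 FPKM after it (about 4620 fragments). Its ratio was 11.5 (10.4 to 12.6). Both caveolins were thus far higher in the D7 library, and Cav2 rose 1.63 times as far as Cav1 (1.47 to 1.81). In bulk RNA, more cells of a type and more RNA per cell cannot be told apart.

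Cav3, the caveolin of skeletal and cardiac muscle, was near the limit of detection. Its FPKM was 0.143 at D0 and 0.0562 at D7, from 3 fragments and 1 fragment. The FPKM of 3 fragments, which a count of 0 still allows, was 0.143 at D0 and 0.168 at D7, so no fold is given and no difference was detectable at this depth.

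**Figure D1:**
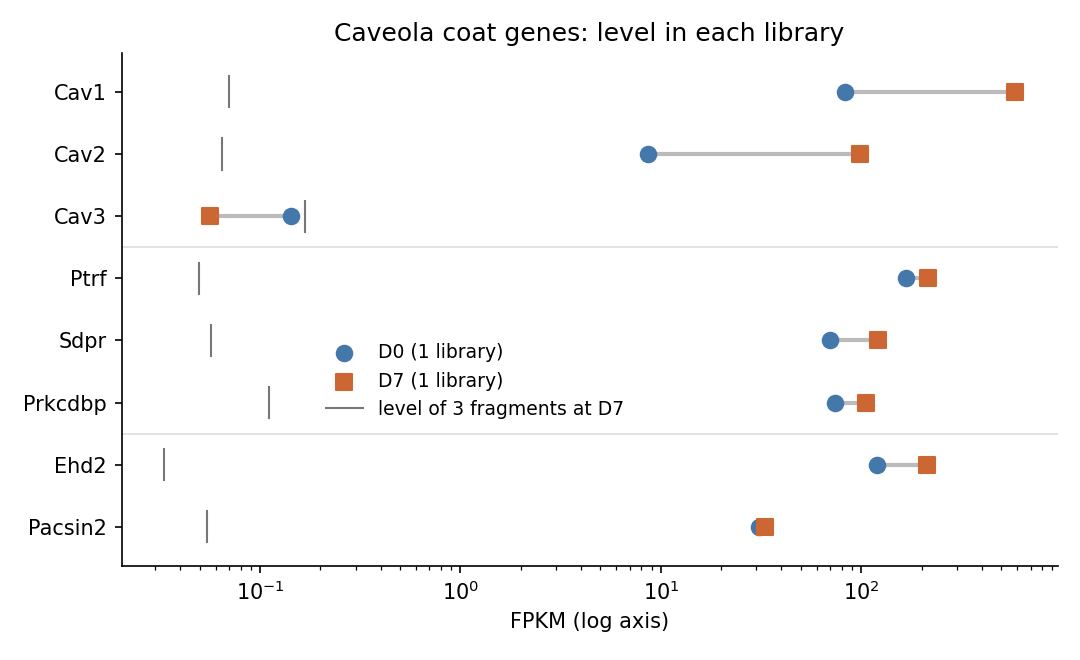
FPKM of the 8 caveola coat genes on a log axis, with a circle for the D0 library, a square for the D7 library and a grey tick at the level of 3 fragments at D7. Cav1 moved from 83.1 to 585 and Cav2 from 8.65 to 99.1, the cavins and Ehd2 moved little on this axis, and Cav3 lay below the tick in both libraries.

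The cavins were high at D0 already and differed less between the stages. Ptrf, the cavin without which caveolae do not form, stood at 167 FPKM in preadipocytes and 216 FPKM in adipocytes, 1.29 times as high (1.26 to 1.32). Sdpr, which binds phosphatidylserine and can bend membranes, went from 69.6 FPKM to 121, 1.73 times as high (1.67 to 1.80). Prkcdbp, the partner of protein kinase C delta, went from 74.4 FPKM to 105, 1.42 times as high (1.34 to 1.49). None of the 3 cavins reached 2-fold. All 3 were somewhat higher in the D7 library in the values as deposited. After division of each library by the median of all its values, with values under 0.01 set to 0.01, the ratio of Ptrf was 1.01, so whether it differed at all depends on the scaling.

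The proteins of the caveola neck were split. Ehd2 stood at 120 FPKM in preadipocytes and 213 FPKM in adipocytes, 1.78 times as high (1.74 to 1.82), the highest ratio below the caveolins. Pacsin2 had 30.8 and 33.2, and its ratio of 1.08 (1.01 to 1.15) turned to 0.844 under the library median. Neither gene reached 2-fold.

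**Figure D2:**
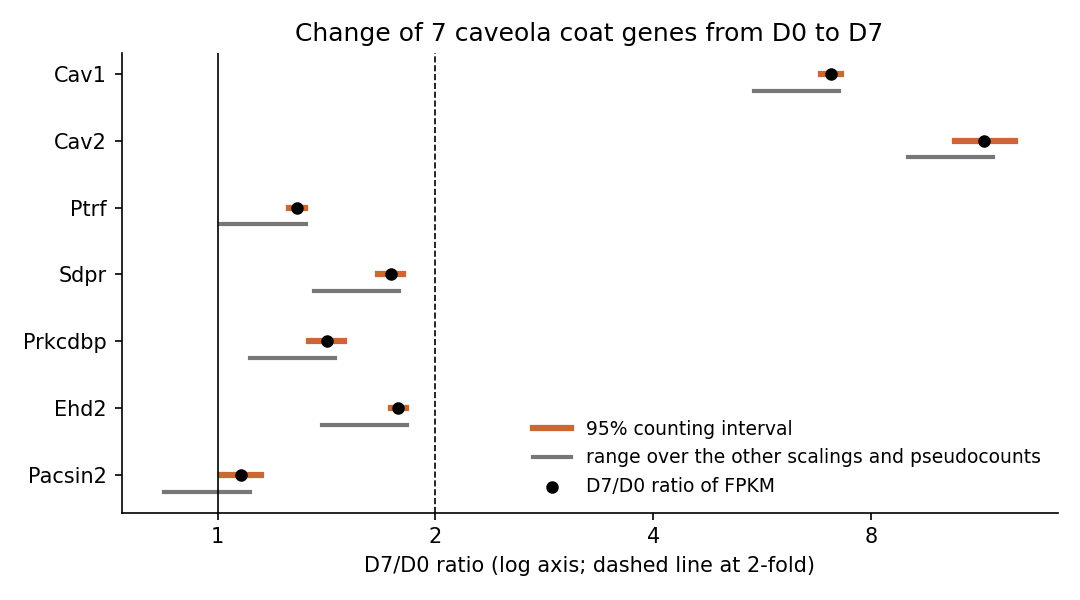
D7/D0 ratio of FPKM on a log axis for the 7 members other than Cav3, with black points for the ratio, orange bars for the 95% counting interval and grey bars for the range over the other scalings and pseudocounts. Cav1 and Cav2 stayed above 2 under each of them, with lowest ratios of 5.51 and 8.98, the other 5 genes stayed below 2, and the grey bar of Pacsin2 crosses 1.

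Of the 8 members, 2 (Cav1 and Cav2) rose by 2-fold or more, the threshold of the study. Over the 14986 genes with FPKM above 0 in both libraries, 18.5% did. The only member lower by at least 2-fold was Cav3, on 3 fragments and 1, beside 13.2% of those genes. These shares depend on the scaling, since 2767 of the genes were called higher and 1980 lower in the values as deposited, but 2001 higher and 3247 lower after division by the library median. Of the 7 members that reached an FPKM of 1 in each library, 2 rose and 0 fell by 2-fold, beside 11.8% and 9.86% of 10773 such genes. With so few members, these counts say nothing particular about the coat as a list. The counting interval lay above 1 for 7 of the 8 members, beside 34.4% of the 14862 genes with a known length. An interval is narrower for a gene with more fragments, so this count depends on level as well as on ratio. It also depends on the scaling, since the ratio of Ptrf was 1.01 and that of Pacsin2 0.844 under the library median. The median log2 ratio of the 8 members was 0.65, or 0.79 without Cav3, and that of all 14986 genes was 0.02. Among the 10773 genes, Cav2 had the rank 105 and Cav1 the rank 195 by ratio, while Pacsin2 had the rank 4440.

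Levels within a library can be compared without any scaling between the libraries, since FPKM is per length. At D0 the order ran from Ptrf over Ehd2, Cav1, Prkcdbp, Sdpr and Pacsin2 to Cav2 and Cav3. At D7 it ran from Cav1 over Ptrf, Ehd2, Sdpr, Prkcdbp and Cav2 to Pacsin2 and Cav3. Cav1 thus passed from the third place to the first, and Cav2 passed Pacsin2. Ptrf and Ehd2 could not be separated at D7, where their levels had a ratio of 1.01 (0.992 to 1.04). Prkcdbp and Sdpr at D0, with a ratio of 1.07 (1.02 to 1.12), and Prkcdbp and Cav2 at D7, with 1.06 (1.01 to 1.11), lay close, and the lengths behind such ratios are approximate.

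Cav1 and Ptrf, the caveolin and the cavin that the pit is built from, changed places. The level of Ptrf was 2.01 times that of Cav1 at D0 (1.94 to 2.09) and 0.369 of it at D7 (0.361 to 0.377). From D0 to D7 the ratio of Ptrf to Cav1 thus moved to 0.183 of its value (0.176 to 0.191). The same measure was 0.247 for Sdpr (0.234 to 0.259), 0.201 for Prkcdbp (0.189 to 0.215), 0.253 for Ehd2 (0.243 to 0.263) and 0.153 for Pacsin2 (0.143 to 0.165). Each of these 5 genes lost ground to Cav1 by about 4-fold or more, and each interval lay below 1. Cav2 alone gained, from 0.104 of the Cav1 level at D0 (0.0943 to 0.114) to 0.170 at D7 (0.164 to 0.175).

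**Figure D3:**
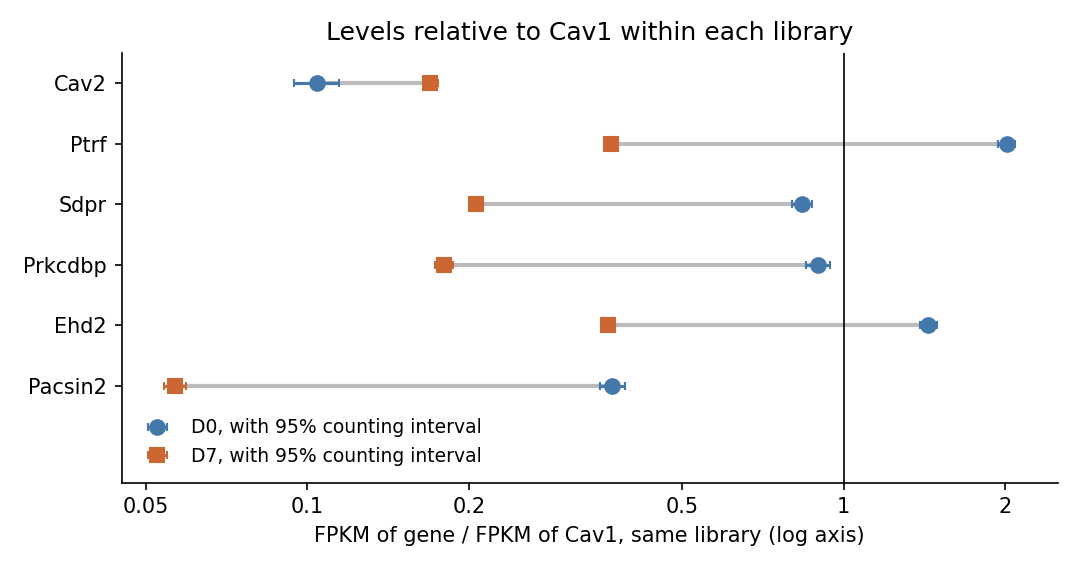
FPKM of each gene divided by that of Cav1 in the same library, on a log axis, with circles for D0, squares for D7 and bars for the 95% counting interval. Ptrf and Ehd2 stand above 1 at D0 and at 0.369 and 0.364 at D7, and Cav2 is the one gene whose square lies to the right of its circle.

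Summed by role, the caveolins reached 91.9 FPKM in preadipocytes and 684 FPKM in adipocytes, 7.44 times as much. The cavins went from 311 to 442 FPKM, 1.42 times as much, and Ehd2 with Pacsin2 from 150 to 246 FPKM, 1.63 times as much. Caveolins made up 16.6% of the summed FPKM of the 8 members at D0 and 49.9% at D7, and cavins 56.2% and 32.2%. The summed FPKM of caveolins was 0.295 of that of cavins at D0 and 1.55 times that of cavins at D7. The share of caveolins in the summed coat transcripts was therefore larger in the D7 library, where Cav1 gave 585 of their 684 FPKM.

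In the ranking of all genes above 0, Cav1 moved from the rank 986 of 15659 at D0 to 146 of 15998 at D7, and Cav2 from 6532 to 882. Ptrf moved from 471 to 403, Ehd2 from 662 to 407, Sdpr from 1157 to 721, Prkcdbp from 1088 to 834 and Pacsin2 from 2610 to 2494. Few genes as abundant as Cav1 rose as far. Of 1640 genes with FPKM of at least 50 at D0, 143 rose 2-fold or more, and 10, Cav1 included, reached the ratio of Cav1. The 3 genes nearest to Cav1 by distance in log2 FPKM over the 2 libraries were Mdh1, Plin2 and Taldo1. Mdh1, the cytosolic malate dehydrogenase, went from 74.0 FPKM to 642, at a distance of 0.21. Plin2, a lipid droplet coat protein, had 100.1 and 641, at 0.30, and Taldo1, the transaldolase of the pentose phosphate pathway, had 98.5 and 496, at 0.34.

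Gene positions are those of GENCODE M21 on mm10. Cav2 (ENSMUSG00000000058.6, chromosome 6, 17281185 to 17289115) and Cav1 (ENSMUSG00000007655.16, chromosome 6, 17306335 to 17341452) lie on the plus strand, 17219 bases apart, and the antisense gene Gm15581, not analysed here, spans both. Their neighbours, chosen after their values were seen, did not share the rise as a block. Tes, a focal adhesion protein whose gene ends 175356 bases before Cav2, went from 93.0 FPKM to 11.2, which is 0.120 of its level in preadipocytes (0.109 to 0.132). Met, the receptor of hepatocyte growth factor, whose gene starts 122347 bases after Cav1, had 2.91 and 9.02, a ratio of 3.10 (2.76 to 3.47). Capza2, an actin capping subunit further on, had 98.1 and 109, a ratio of 1.11 (1.07 to 1.15). Further out, Wnt2, a secreted Wnt ligand, had 0.553 and 1.36, a ratio of 2.46 (1.46 to 4.04) on 25 and 51 fragments. St7 had 11.4 and 7.35, a ratio of 0.644 (0.555 to 0.746). Among these genes the highest ratios were those of Cav2 and Cav1, with Met and Wnt2 also past 2-fold higher and Tes past 2-fold lower. Over all genes above 0 in both libraries, 18.5% were higher and 13.2% lower by at least 2-fold.

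**Figure D4:**
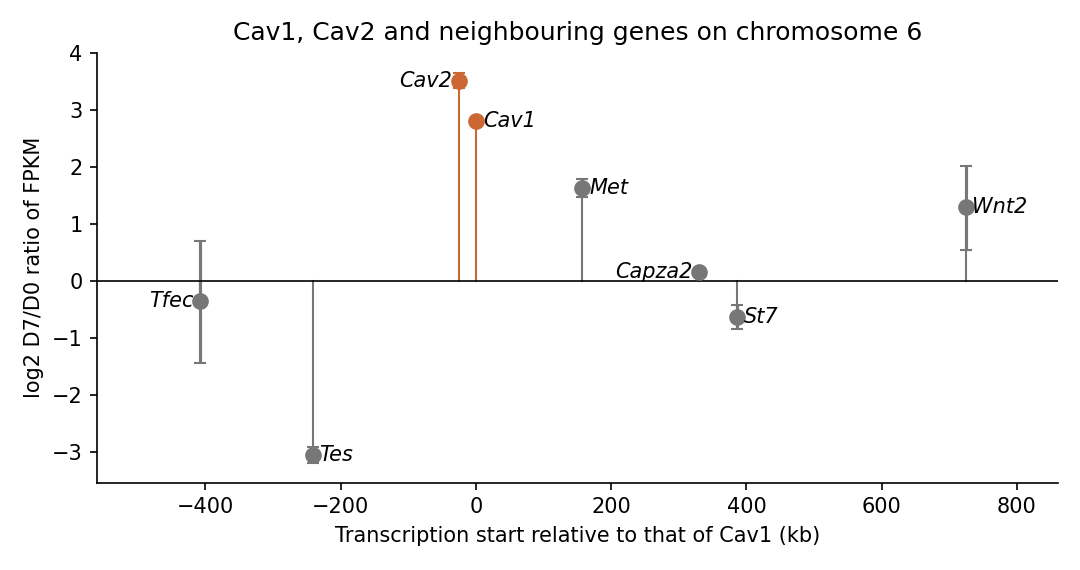
log2 D7/D0 ratio of FPKM against the distance of the transcription start from that of Cav1, in kb, for genes within 1000 kb that had more than 3 fragments in a library, with bars for the 95% counting interval. Cav2 and Cav1 (orange) stand at 3.52 and 2.81, Met at 1.63, and Tes at -3.06.

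The other members lie apart. Cav3 (ENSMUSG00000062694.7, 112459505 to 112472872) is on chromosome 6 too, far from Cav1 and Cav2. Ptrf is Cavin1 in the annotation (ENSMUSG00000004044.9, chromosome 11, 100956733 to 100970887) and Pacsin2 (ENSMUSG00000016664.16) lies on chromosome 15, from 83375607 to 83464606. Prkcdbp is Cavin3 (ENSMUSG00000037060.3, chromosome 7, 105480083 to 105482300), overlapped on the opposite strand by Gm45667, and Ehd2 (ENSMUSG00000074364.6) is on chromosome 7 from 15946958 to 15967567. Sdpr is Cavin2 (ENSMUSG00000045954.7, chromosome 1, 51289126 to 51302960). Its deposited locus of 115394 bases is that of 9330175M20Rik, an antisense gene around it, which had a row of its own, with 0 in preadipocytes and 0.0231 FPKM in adipocytes. Whether strand was used in counting is not given in the sources used here, so values of overlapped genes are uncertain. Cav1 has 10 annotated transcripts, and its alpha and beta forms cannot be told apart in 1 value per gene.

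Paralogs of the neck and coat proteins were followed by a list of 6 genes. Of the 4 above 0 in both libraries, 1 was higher by at least 2-fold, beside 18.5% of all such genes. This was Ehd3, an endosomal EHD protein, which went from 6.45 FPKM to 20.6, 3.20 times as high (2.88 to 3.56). Ehd1 had 76.0 and 83.2, and Ehd4 had 15.8 and 18.1. Their ratios of 1.09 and 1.14 were below that of Ehd2. Murc, the cavin of muscle, had 11 fragments in preadipocytes and a listed value of 0 in adipocytes. The median log2 ratio of the 4 paralogs above 0 in both libraries was 0.27, and -0.08 under the library median.

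Of 5 kinases, scission factors and actin linkers of caveolae, 3 fell by at least 2-fold in adipocytes and 0 rose as far, beside 13.2% lower and 18.5% higher over all genes. Their median log2 ratio was -1.23. Flna, the filamin that ties caveolae to actin fibres, fell from 416 FPKM to 119, to 0.285 of its level in preadipocytes (0.280 to 0.289). Fyn and Src, kinases that phosphorylate caveolin 1, fell from 32.3 FPKM to 12.0 and from 22.0 FPKM to 9.40, with ratios of 0.371 and 0.426. Dnm2, the dynamin that cuts pits from the membrane, had a ratio of 1.02 (0.974 to 1.07).

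Of 5 proteins that reside in or signal from adipocyte caveolae, 4 were higher by at least 2-fold, beside 18.5% of all genes. Cd36, the fatty acid translocase, rose from 0.665 FPKM to 478, and Slc2a4, the insulin-regulated glucose transporter, from 0.722 FPKM to 154. Insr, the insulin receptor, rose from 5.90 FPKM to 18.6, 3.16 times as high (2.95 to 3.38). The remaining called gene was Nos3, on 6 and 19 fragments, with an interval of 1.43 to 11.4. Cd36 and Slc2a4 are also genes of mature adipocytes in general.

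Other coats of the membrane did not rise with Cav1 and Cav2. None of 8 genes of clathrin and its adaptor AP-2 was past 2-fold, beside 18.5% higher and 13.2% lower over all genes. Their median log2 ratio was -0.44. Under the library median 1 of them, Ap2m1, was lower by 2-fold, with a ratio of 0.489, beside 3247 of all 14986 genes. Clta, a clathrin light chain, went from 255 FPKM to 176, 0.689 of its level in preadipocytes (0.658 to 0.720), and Ap2m1, the mu subunit of AP-2, had 211 and 132, a ratio of 0.624 (0.606 to 0.643). The flotillins, which mark membrane rafts outside caveolae, had ratios of 0.862 for Flot1 and 1.11 for Flot2, the latter within the range that scaling can turn. Divided by the geometric mean of the 8 clathrin and AP-2 genes, a reference chosen after seeing the data, the ratios of Cav1 and Cav2 were 9.02 and 14.7.

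**Figure D5:**
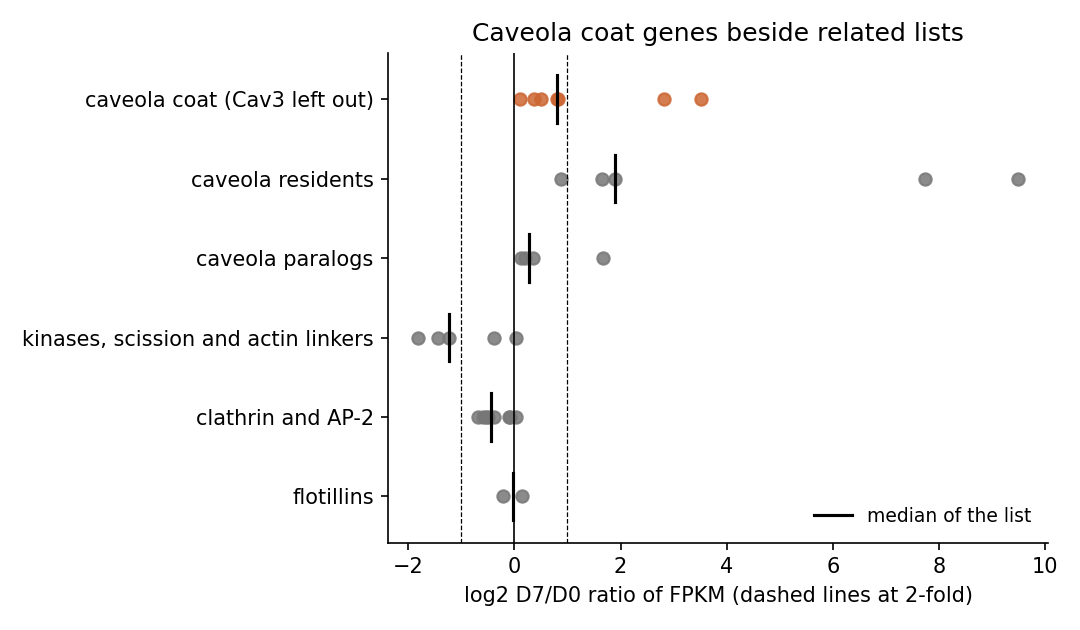
log2 D7/D0 ratio of FPKM for each gene above 0 in both libraries, 1 point a gene, in the caveola coat (without Cav3) and 5 related lists, with a black bar at the median of each list and dashed lines at 2-fold. The coat splits into Cav1 and Cav2 beyond the dashed line and 5 genes short of it, and all clathrin and AP-2 genes lie between the dashed lines in the values as deposited.

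Markers of the labelled cells were present. All 8 adipocyte genes (Pparg, Cebpa, Adipoq, Fabp4, Plin1, Lipe, Cidec and Cfd) rose 2-fold or more. Their summed FPKM was 37.1 at D0 and 17192 at D7, of which Fabp4 gave 20.3 and 14391. For the adipocyte count and the marker counts below, the background is all 14986 genes above 0 in both libraries. In the values as deposited, 18.5% of them were higher and 13.2% lower by at least 2-fold. Under the library median, 2001 of them were higher and 3247 lower. Of the brown markers, Ucp1, Cidea and Elovl3 had a listed value of 0 in preadipocytes and reached 4.57, 24.4 and 34.2 FPKM in adipocytes. Ppargc1a and Dio2 rose and Prdm16 had a ratio of 1.22 (0.965 to 1.53). Caveolae are also dense in endothelium and smooth muscle, so markers of these cells were read beside the caveolins. Endothelial genes were close to 0. Their summed FPKM over 8 genes was 1.69 at D0 and 2.65 at D7. Of these genes, 2 (Kdr and Tek) were higher and 2 (Cdh5 and Esam) lower by at least 2-fold. Under the library median, 1 was higher and 3 were lower. The highest at D7 was Tek, at 0.520 and 1.62, with a ratio of 3.11 (2.23 to 4.39). Kdr had 37 and 69 fragments and a ratio of 2.18 (1.45 to 3.36). Cdh5 had 13 and 2 fragments, and Esam had 4 and 1. Tie1 and Cldn5 were listed at 0 in both libraries, and Pecam1 had 1 fragment in each. Of 6 smooth muscle and pericyte genes, 3 (Acta2, Tagln and Cnn1) were lower by at least 2-fold and 1 (Rgs5) was higher, and their sum was 3997 at D0 and 678 at D7. Under the library median 5 of the 6 were lower by at least 2-fold. Of 8 skeletal muscle genes, Myod1 and Ckm were listed at 0 in both libraries, and the sum was 46.6 and 2.82, most of it from Acta1. All 8 macrophage genes (Emr1, Cd68, Csf1r, Lyz2, C1qa, C1qb, C1qc and Mrc1) rose 2-fold or more, with a sum of 149.6 at D0 and 573 at D7. Of 6 preadipocyte and fibroblast genes, 4 (Pdgfrb, Col1a1, Col1a2 and Thy1) were lower and Cd34 was higher by at least 2-fold, with a sum of 3991 and 1608. The part of macrophages and of the lower contractile genes in the values of the coat was not tested.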

How the data were processed

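Poly(A) RNA-Seq had been made with degradation of the second strand, 1 library per stage. The authors filtered reads, removed duplicates and rRNA, and aligned to mm10 and gene sequences with SOAP2 (the submitters' processing notes name Bowtie2). They deposited FPKM, with at most 1 value for a row in each library. Of 27324 rows, 3963 held no value, and 25 symbols were held by more than 1 row. Each row with values is counted as a gene here. Ratios of deposited FPKM were formed without a pseudocount or rescaling, and a gene was called when the ratio reached 2 or fell to 0.5 or below. Fragments were recovered by making values of up to 20 fragments whole, with the length of the named transcript less 179 bases at D0 and 182 at D7. Ratio intervals are exact (Clopper-Pearson, or conditional odds ratios between genes). With 1 library per stage no test was made.

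The members and lists were chosen with earlier results of these data known. Named were all members, list genes past 2-fold at FPKM of at least 1 in a library, the 2 highest of each pathway list, and the 3 genes nearest to Cav1. Nos3, Murc, further endothelial and muscle genes, and the neighbours of Cav1 and Cav2 were added after their values were seen, and marker lists are given by counts and sums. Alternatives were pseudocounts, 5 scalings, thresholds, a filter, and the longest transcript for intervals. The scripts were tested on simulated data. Protein sequences were not used here. The scripts ran in Python 3.11.15 with scipy 1.17.1, pandas 2.3.3, numpy 2.4.6 and, for figures, matplotlib 3.10.9.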

Additional observations from a re-analysis of the deposited data

How the results depend on the processing

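Cav1 and Cav2 stayed higher at D7 by at least 2-fold under both pseudocounts, all 5 scalings and a threshold of 4-fold, with ratios from 5.51 to 7.23 and from 8.98 to 11.8. At a threshold of 1.5-fold, 4 members were higher, Sdpr and Ehd2 being added. The share of all genes past 1.5-fold was not computed, so this count has no background. The count of lower members, 1 in the values as deposited, rested on Cav3 and was 0 with a pseudocount of 0.1 or 1, at a threshold of 4-fold, at FPKM of at least 1 in a library, and with Cav3 left out, the last chosen after seeing the data. The median log2 ratio of the members was 0.30 with the floor of 0.01 and the library median. Otherwise it lay between 0.60 and 0.79. The floor with the library median shifts each gene above the floor by -0.35. With it, the median over all 14986 genes above 0 in both libraries was -0.34. Under that scaling the ratios of Ptrf, Prkcdbp and Pacsin2 were 1.01, 1.11 and 0.844. Of the pathway lists, under scalings added after seeing the data, the count that moved was that of lower clathrin and AP-2 genes, from 0 to 1 (Ap2m1, 0.489) under the library median. Of the marker lists, the library median moved lower smooth muscle genes from 3 to 5 and lower skeletal muscle genes from 2 to 3. Endothelial genes went from 2 higher and 2 lower to 1 and 3. The upper quartile also gave 3 lower endothelial genes. Over all genes, a pseudocount of 1 gave 1455 higher and 1009 lower genes in place of 2767 and 1980, and the floor with the library median gave 2836 higher and 3832 lower genes with genes listed at 0 in a library included, or 2001 and 3247 over genes above 0 in both, a set chosen after seeing the data. Using the longest transcript of each gene moved no interval of the D0 to D7 change relative to Cav1 across 1, and the levels relative to Cav1 within a library were not recomputed. No paired analysis was possible because there is 1 library per stage, and for the same reason no library could be left out.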
